A study of Mus musculus with 8 samples.

Results

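The leptomeninges that wrap the brain hold fibroblasts and a barrier layer of arachnoid cells, and 10 genes typical of these cells were examined in mouse brain: Slc6a20a, Slc6a13, Slc22a6, Slc13a4, Lum, Dcn, Ogn, Igf2, Aldh1a2 and Ptgds. They were chosen by name, as known meningeal genes, from the 19938 genes that could be named on the array. The choice was made with earlier results of these data known, so their shared direction is a description and not independent support. Each was read by the 1 probe set that pairs with its symbol alone, so all 10 were measured. The RNA was total RNA of frozen brain from males at 2 to 4 months of age. The labels give 4 arrays as TNF-/-, lacking the cytokine tumour necrosis factor, and 4 as TNF+/+ C57BL/6, or wild type, each as a biological replicate, with no treatment. No strain is given for the TNF-/- mice, and the labels name neither the targeted allele nor the part of the gene removed. Each sample was read on its own Affymetrix Mouse Gene 1.0 ST array as a log2 signal, so that a difference of 1 is a doubling.

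Meningeal fibroblasts lay down the collagen and proteoglycan matrix that covers the brain surface and follows its larger vessels inward. They carry transporters that move amino acids, organic anions and other solutes between cerebrospinal fluid and blood. They also release signals that act on the tissue below, among them insulin-like growth factor 2 and retinoic acid, which in the embryo guides growth of the cortex. In a lysate of brain their RNA is a small share of the total. In such bulk samples fewer cells of a type and less RNA per cell cannot be told apart.

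The 8 arrays were alike in scale, with medians between 5.03 and 5.11. TNF+/+ arrays 3 and 4 lay apart from the other 6 on the leading principal component, which carried 24% of the variance. Cerebellum genes averaged 7.83 in TNF+/+ array 1 and between 6.51 and 6.63 in the other 7 arrays. Tnf itself went against the labels, at 5.67 to 6.21 where the label is TNF-/- and 4.24 to 4.93 where it is TNF+/+ (limma, adjusted p = 0.0278). The position of its probes relative to the removed part is unknown here, and a probe set outside that part checks nothing, so every direction here is that of arrays as labelled. Neuronal genes, which check the labelled tissue, had list means of 10.68 to 10.80. All 10 meningeal genes had a mean signal above 4.04, the highest 25th percentile of any array, but Lum and Slc22a6 were below the median probe set (5.08), where the array resolves change less well.

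Promoter sequences are shown for the members that separated the groups or belong to different roles, because the 10 genes were mostly higher in the same arrays. RefSeq windows of 300 bases on GRCm38.p6, from 250 bases before to 50 after the start of transcription, were given for 8 of the 10 genes, in 13 windows, and 4 are printed here. Slc6a20a and Aldh1a2 are the members with a window whose groups did not overlap, Ogn stands for the proteoglycans, and Ptgds is a member whose groups overlapped fully. Capitals mark matches, on either strand, to short motifs that many promoters carry. These were the GC box, with the letters GGGCGG, to which factors of the Sp family bind. Also marked were the CCAAT box, named for its own letters, and the box read by the TATA-binding protein, searched as TATAAA.
Slc6a20a, chr9:123678783-123679082, minus strand: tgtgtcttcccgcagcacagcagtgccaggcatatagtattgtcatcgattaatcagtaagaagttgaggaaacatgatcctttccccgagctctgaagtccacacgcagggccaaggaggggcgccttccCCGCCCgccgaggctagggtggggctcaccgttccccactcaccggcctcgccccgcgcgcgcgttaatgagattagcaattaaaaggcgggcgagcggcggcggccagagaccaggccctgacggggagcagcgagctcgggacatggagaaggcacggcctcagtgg
Aldh1a2, chr9:71215539-71215838, plus strand: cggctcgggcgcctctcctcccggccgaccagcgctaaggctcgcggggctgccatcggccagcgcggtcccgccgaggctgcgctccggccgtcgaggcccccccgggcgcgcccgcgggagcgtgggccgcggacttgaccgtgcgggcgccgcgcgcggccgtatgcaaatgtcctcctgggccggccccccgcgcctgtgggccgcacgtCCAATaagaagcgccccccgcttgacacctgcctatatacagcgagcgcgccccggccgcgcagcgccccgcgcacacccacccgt
Ogn, chr13:49607765-49608064, plus strand: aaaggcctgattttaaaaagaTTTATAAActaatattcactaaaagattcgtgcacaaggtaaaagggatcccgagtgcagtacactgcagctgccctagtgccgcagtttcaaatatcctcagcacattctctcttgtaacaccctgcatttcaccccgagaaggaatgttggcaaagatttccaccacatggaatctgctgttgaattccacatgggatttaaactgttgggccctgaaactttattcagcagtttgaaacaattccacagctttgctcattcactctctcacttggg
Ptgds, chr2:25469700-25469999, minus strand: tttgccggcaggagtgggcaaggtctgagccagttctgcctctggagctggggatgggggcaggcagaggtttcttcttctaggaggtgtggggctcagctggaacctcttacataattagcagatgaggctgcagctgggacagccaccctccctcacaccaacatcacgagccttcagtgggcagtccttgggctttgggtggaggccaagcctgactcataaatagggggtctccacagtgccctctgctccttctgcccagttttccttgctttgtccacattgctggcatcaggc

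The 4 promoters had little in common beyond their place. CpG dinucleotides numbered 50 in the Aldh1a2 window, 25 in that of Slc6a20a, 4 in that of Ogn and 2 in that of Ptgds, against a median of 7 over all 32851 windows. A GC box began 119 bases before the start of Slc6a20a, a CCAAT box 36 bases before that of Aldh1a2, and 2 overlapping TATA box matches 229 and 227 bases before that of Ogn. Over the 13 windows of the members, 5 held a GC box and 6 a CCAAT box, and the shares over all windows were 35.7% and 37.4%. A match to the NF-kB motif, whose factor TNF activates, was in 1 of the 13, a window of Slc6a13, against 1.63% of all windows. The forkhead motif GTAAACA, of the family of the meningeal regulator Foxc1, was in 0 of the 13, against 3.65% of all windows. These are matches of letters in short windows and say nothing of binding.

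All 10 meningeal genes had a higher mean signal in the arrays labelled TNF-/- than in those labelled TNF+/+, against 47.8% of all genes, with a median difference of 0.23 on the log2 scale (1.17-fold) against -0.01 over all genes. None of the 10 passed the test across all 35556 probe sets (limma, adjusted p = 0.225 to 0.876), where 0.0816% were called (0.0366% in the higher direction), and SAM, the test that the study's design names, also called 0 of the 10 (0.149% of all probe sets). At an unadjusted p under 0.05 limma had 5 of the 10, all higher, while 7.37% of all genes were higher at that level. In 3 of the 10, Slc6a20a, Lum and Aldh1a2, every TNF-/- array lay above every TNF+/+ array, a pattern in that direction found in 4.16% of all genes (7.66% in either direction). After quantile normalization or centring of the arrays on their medians only Slc6a20a still separated, since the groups of Lum and of Aldh1a2 stood just 0.02 apart. The number of arrays limits the precision of each of these values.

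**Figure D1:**
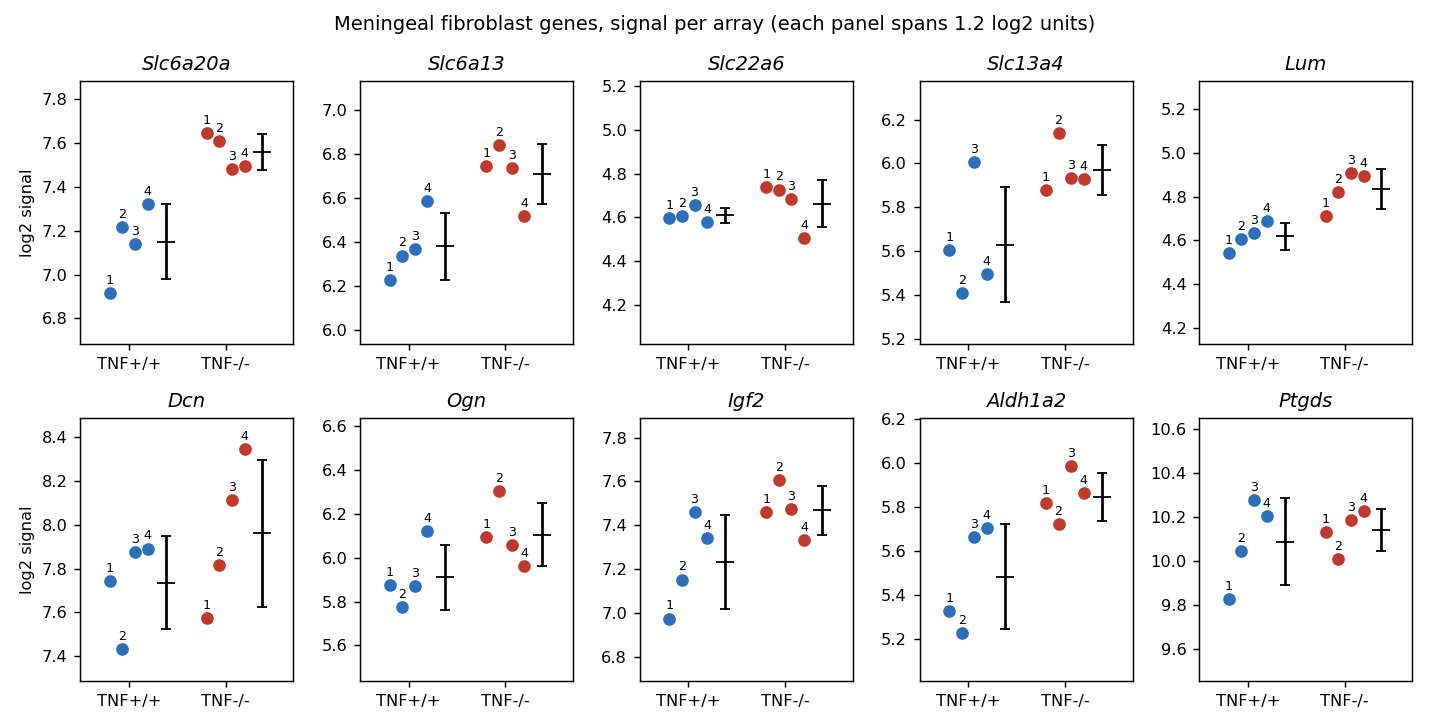
Log2 signal (vertical axis) of each meningeal gene in the 4 TNF+/+ arrays (blue) and the 4 TNF-/- arrays (red), with array numbers over the points and the mean and SD of each group as black bars. Each panel spans 1.2 log2 units; the groups do not overlap for Slc6a20a, Lum and Aldh1a2, and TNF+/+ arrays 1 and 2 hold the lowest point of 9 of the 10 genes.

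The transporters were compared first. Slc6a20a encodes a carrier of proline and related imino acids. Its signal was 7.65, 7.61, 7.48 and 7.50 in TNF-/- arrays 1 to 4 and 6.92, 7.22, 7.14 and 7.32 in TNF+/+ arrays 1 to 4. The lowest TNF-/- array thus stood 0.16 above the highest TNF+/+ array. The difference was 0.41 ± 0.09 (SE), or 1.33-fold with a 95% confidence interval of 1.15 to 1.53 (limma, adjusted p = 0.225), with p = 0.0286 by exact permutation (two-sided), which is as small as 4 arrays against 4 allow. Of all genes 99.3% had a lower difference. Its neighbour gene Slc6a20b, a close copy, differed by -0.12, with signals of 4.20 to 4.81 over the 8 arrays.

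Slc6a13 encodes GAT2, a carrier of GABA and taurine found in leptomeninges and liver rather than at synapses. Its signal was 6.74, 6.84, 6.74 and 6.52 in the TNF-/- arrays and 6.23, 6.34, 6.37 and 6.59 in the TNF+/+ arrays. Only TNF-/- array 4 and TNF+/+ array 4 crossed, by 0.07. The difference was 0.33 ± 0.10 (SE), or 1.26-fold (1.08 to 1.46; limma, adjusted p = 0.313, exact permutation p = 0.0571).

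Slc13a4 encodes a sodium-dependent sulfate carrier. Its signal was 5.88, 6.14, 5.93 and 5.93 in the TNF-/- arrays and 5.61, 5.41, 6.01 and 5.50 in the TNF+/+ arrays. TNF+/+ array 3 lay within the TNF-/- range and the other 3 below it. The difference was 0.34 ± 0.13 (SE), or 1.27-fold (1.03 to 1.55; limma, adjusted p = 0.407, exact permutation p = 0.114), and it was 0.22 without TNF+/+ arrays 1 and 2.

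Slc22a6, the organic anion carrier OAT1, known best from kidney, showed the least of the transporters. Its signal ran from 4.51 to 4.74 in the TNF-/- arrays and from 4.58 to 4.65 in the TNF+/+ arrays. TNF-/- array 4 was the lowest of all 8 and the other 3 TNF-/- arrays were the highest. The difference was 0.05 ± 0.06 (SE; limma, adjusted p = 0.778), with a 95% confidence interval of -0.09 to 0.20. It was 0.11 without TNF-/- array 4, 0.030 without TNF-/- array 1, 0.033 without TNF-/- array 2 and 0.036 with the arrays centred on their medians.

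Proteoglycans of the small leucine-rich family bind collagen and set the width of its fibrils. Lum, which encodes lumican, had signals of 4.71, 4.82, 4.91 and 4.89 in the TNF-/- arrays and 4.54, 4.61, 4.63 and 4.69 in the TNF+/+ arrays. The groups did not overlap, by the narrow margin given above. The difference was 0.21 ± 0.06 (SE), or 1.16-fold (1.05 to 1.28; limma, adjusted p = 0.323, exact permutation p = 0.0286).

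Dcn, which encodes decorin, lies beside Lum on chromosome 10 with 0 measured genes between them. Its signal was 7.58, 7.81, 8.11 and 8.34 in the TNF-/- arrays and 7.74, 7.43, 7.88 and 7.89 in the TNF+/+ arrays. The TNF-/- arrays spread more widely than for any other of the 10 genes (SD 0.34), and array 1 lay below 3 of the 4 TNF+/+ arrays. The difference of 0.22 ± 0.17 (SE; limma, adjusted p = 0.653) was within that spread. It was 0.10 without TNF-/- array 4 and 0.35 without TNF-/- array 1.

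Ogn encodes osteoglycin, also called mimecan. Its signal was 6.10, 6.30, 6.06 and 5.96 in the TNF-/- arrays and 5.88, 5.77, 5.87 and 6.12 in the TNF+/+ arrays. TNF+/+ array 4 exceeded 3 of the 4 TNF-/- arrays. The difference was 0.19 ± 0.10 (SE; limma, adjusted p = 0.506), and 0.13 without TNF-/- array 2.

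Among signals and enzymes, Aldh1a2 encodes RALDH2, which makes retinoic acid and is a classic meningeal enzyme. Its signal was 5.82, 5.72, 5.99 and 5.86 in the TNF-/- arrays and 5.33, 5.23, 5.66 and 5.70 in the TNF+/+ arrays. TNF+/+ arrays 1 and 2 were clearly lower than the other 2 of their group, which came close to the TNF-/- arrays. The difference was 0.37 ± 0.12 (SE), or 1.29-fold (1.07 to 1.56; limma, adjusted p = 0.358, exact permutation p = 0.0286). It was 0.16 without TNF+/+ arrays 1 and 2 and 0.57 without TNF+/+ arrays 3 and 4.

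Igf2, the growth factor gene that in adult brain is expressed mainly by meninges and choroid plexus, had signals of 7.46, 7.61, 7.47 and 7.33 in the TNF-/- arrays and 6.97, 7.15, 7.46 and 7.34 in the TNF+/+ arrays. TNF+/+ arrays 3 and 4 lay within the TNF-/- range. The difference was 0.24 ± 0.11 (SE; limma, adjusted p = 0.485), 0.15 without TNF+/+ array 1 and 0.07 without TNF+/+ arrays 1 and 2.

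Ptgds encodes the lipocalin-type prostaglandin D synthase, a major protein of cerebrospinal fluid that arachnoid cells, choroid plexus and oligodendrocytes all make. Its signal ran from 10.01 to 10.23 in the TNF-/- arrays and from 9.83 to 10.28 in the TNF+/+ arrays, which held both the lowest and the highest value. The difference was 0.05 ± 0.10 (SE; limma, adjusted p = 0.876), with a 95% confidence interval of -0.18 to 0.29. It turned to -0.036 without TNF+/+ array 1 and to -0.10 without TNF+/+ arrays 1 and 2, and was 0.11 without TNF+/+ array 3.

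**Figure D2:**
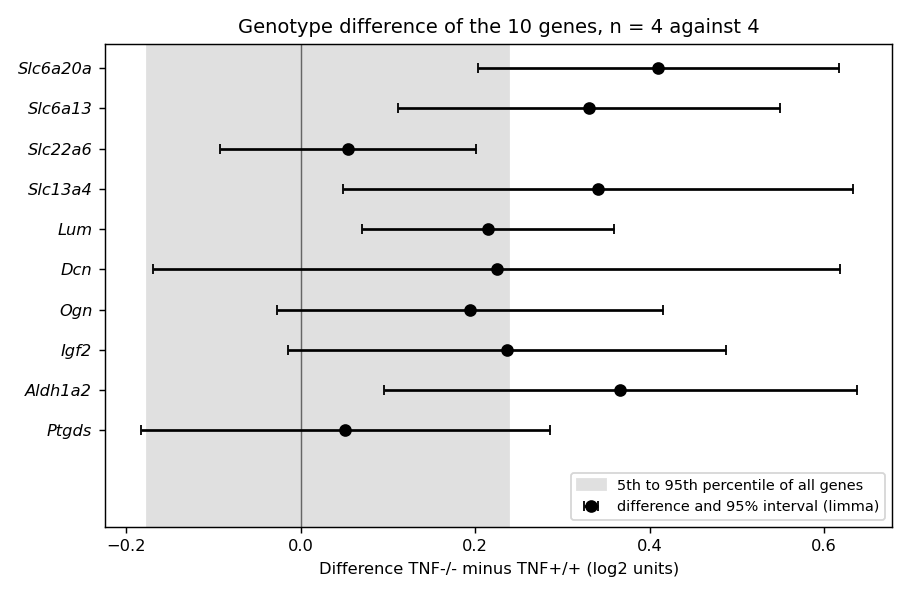
Difference in log2 signal, TNF-/- minus TNF+/+ (horizontal axis), for each meningeal gene, with limma's 95% confidence interval and 4 arrays per group. The grey band runs from the 5th to the 95th percentile of all 19938 genes, -0.18 to 0.24; Slc6a20a, Aldh1a2, Slc13a4 and Slc6a13 lie beyond it, while Slc22a6 and Ptgds lie well inside.

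By role, the 4 transporters had a median difference of 0.34, the 3 proteoglycans of 0.21 and the other 3 genes of 0.24. The groups were not evenly composed inside. The mean of the 10 genes was 6.68, 6.76, 6.76 and 6.71 in TNF-/- arrays 1 to 4 and 6.36, 6.38, 6.60 and 6.59 in TNF+/+ arrays 1 to 4. TNF+/+ arrays 1 and 2 were low: each had 0 of the 10 genes above that gene's own mean over the 8 arrays, and together they held the lowest value of 9. TNF+/+ arrays 3 and 4 had 6 and 5 of the 10 above it, TNF-/- arrays 1 to 4 had 8, 8, 10 and 6. Without TNF+/+ arrays 1 and 2 the median difference was 0.14 and 9 of the 10 genes were higher, with 1 at an unadjusted p under 0.05 (limma). Of all 35556 probe sets 5263 were at that level, in either direction. Without TNF+/+ arrays 3 and 4 the median difference was 0.39 and 10 of 10 were higher, with 7 at that level, against 3566 of all probe sets. In either case 0 members passed the adjusted threshold.

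Whether an array high in 1 meningeal gene was high in the others was asked through the 45 pairs. Pearson's r over the 8 arrays had a median of 0.58 and was above 0 in 43 of the 45 pairs, and above 0.5 in 60% of them, against a median of 0.01 and 12.9% over all pairs of genes. These arrays include both genotypes, so a shared genotype difference adds to r. With each group's mean removed the median was 0.29, with 36 of the 45 pairs above 0. Of the 45 pairs 31.1% were above 0.5, against 14.4% of all pairs of genes. For Slc6a20a and Lum r was -0.94 in the TNF-/- arrays alone and 0.92 in the TNF+/+ arrays alone. For Igf2 and Ptgds it was -0.93 and 0.99. Slc6a13 and Slc22a6 went the opposite way (0.94 and -0.34), and Slc6a13 and Ogn were alike in both (0.88 and 0.82). With so few arrays per group each such r is imprecise. The median of 0.29 therefore does not show co-variation shared by both groups. By exact permutation over the 8 arrays 14 pairs had an unadjusted p under 0.05, all with r above 0. After Benjamini-Hochberg adjustment over the pairs 0 of the 45 passed (lowest adjusted p = 0.0703 for r and 0.0513 for Spearman's rho).

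The closest pair was Slc6a20a and Slc6a13, with r = 0.92 and rho = 0.88 (n = 8 arrays, exact permutation p = 0.00156 and 0.00724, adjusted p = 0.0703 and 0.161), 0.76 with group means removed, and 0.84 without the 2 arrays farthest from the median of Slc6a20a. Slc6a13 and Ogn followed, with r = 0.89 and rho = 0.86 (exact permutation p = 0.00355 and 0.0107, adjusted p = 0.0798 and 0.161), 0.85 with group means removed and 0.89 without 2 arrays. Lum and Aldh1a2 gave r = 0.84 and rho = 0.95 (exact permutation p = 0.00809 and 0.00114, adjusted p = 0.091 and 0.0513), 0.58 with group means removed and 0.73 without 2 arrays. The chromosomal neighbours Lum and Dcn gave r = 0.72 and rho = 0.67 (exact permutation p = 0.0406 and 0.0831, adjusted p = 0.149 and 0.288), and 0.77 with group means removed. Without the 2 arrays farthest from the median of Lum r was 0.25. Leaving out such arrays narrows the range of Lum and can lower r, so this value does not decide what the relation rests on.

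Dcn had the lowest median r with the other 9 genes, at 0.27, and 0.01 with group means removed. Ptgds followed at 0.39, and 0.45 with group means removed, and Slc22a6 at 0.43 and 0.24. Between Dcn and Slc22a6 r was -0.43 and rho -0.43 (exact permutation p = 0.289 and 0.299, adjusted p = 0.383 and 0.499), -0.69 with group means removed, and 0.39 without the 2 arrays farthest from the median of Slc22a6. In the TNF-/- group array 1 held the highest Slc6a20a and Slc22a6 and the lowest Dcn, and array 4 the lowest Slc6a13 and Slc22a6 and the highest Dcn. Igf2 had the highest median r once group means were removed (0.57). Without the 2 arrays farthest from its median its r with Aldh1a2 went from 0.76 to -0.09 and that with Ptgds from 0.58 to -0.73, so these values depend on those arrays. For its other pairs the 2 arrays left out were those farthest from the partner's median, and r was then between 0.20 (Dcn) and 0.94 (Slc13a4).

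**Figure D3:**
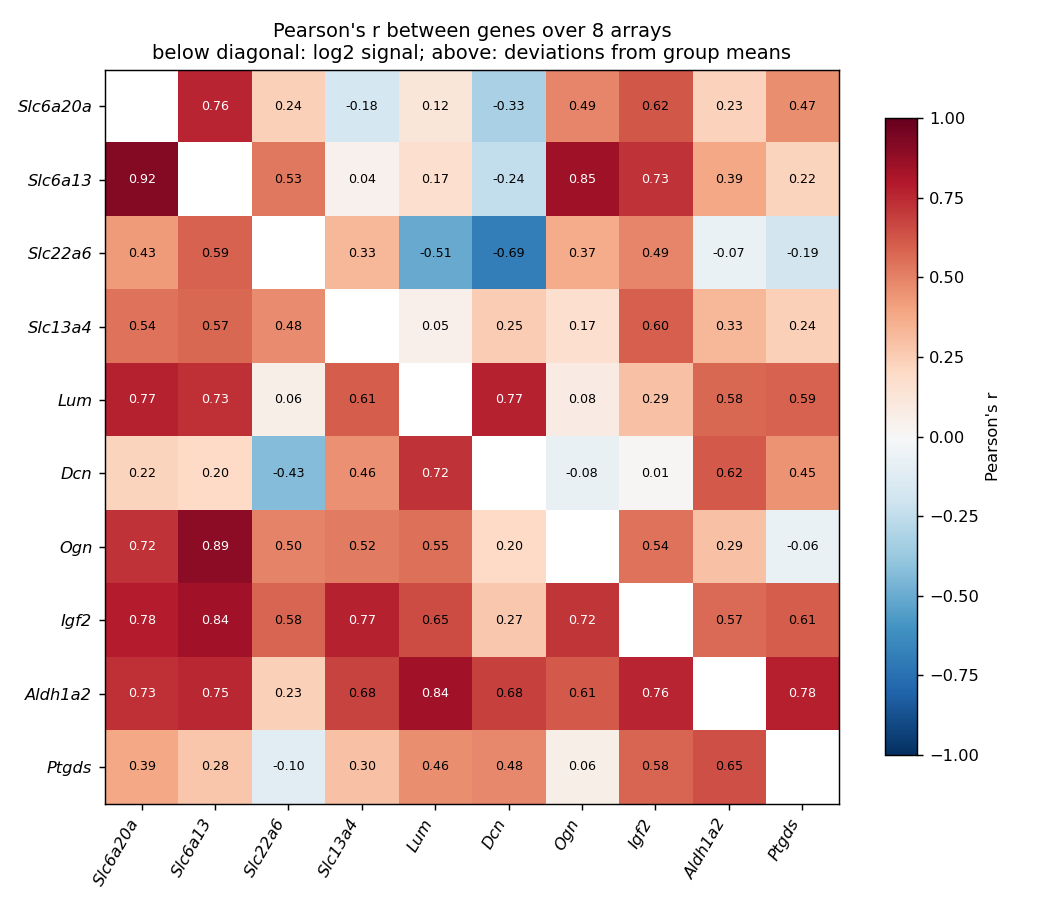
Pearson's r between each pair of meningeal genes over the 8 arrays, on a colour scale from -1 to 1, computed from log2 signals below the diagonal and from deviations from the group means above it. Slc6a20a, Slc6a13, Ogn and Igf2 form a block of high values on both sides, while Dcn has r below 0 with Slc6a20a, Slc6a13, Slc22a6 and Ogn once group means are removed.

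The genes most like the group were sought among 9961 other genes with a signal above the median gene, by Pearson's r over the 8 arrays between their deviations from the group means and the members' mean standardised deviation. Prcp, which encodes a lysosomal carboxypeptidase, came first (r = 0.99), then the kinase gene Nuak1 (0.98), the ATP synthase subunit gene Atp5g3 (0.96), the pentose phosphate enzyme gene Taldo1 (0.95) and Armc2 (0.95). The remaining 7 of the 12 named by this rule were 1700037H04Rik, Trp53bp2, Sdhaf4, Fscn1, Smpdl3a, Septin10 and Surf4, at r of 0.94 to 0.95. None of the 12 is in any of the gene lists used here, and with 8 arrays and that many candidates high values are reached by many genes. Prcp differed by -0.06 ± 0.12 (SE) between genotypes and Nuak1 by 0.10 ± 0.09.

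Other genes known from meninges were counted in 4 lists, 39 genes in all. Higher in the TNF-/- arrays were 31 of the 39, with a median difference of 0.11. None passed by limma, and SAM was not counted for these lists. At an unadjusted p under 0.05 (limma) 7 were higher and 1 lower, against 7.37% and 4.28% of all genes. In the higher direction 1 gene, Bmp6, had groups without overlap, a pattern found in 4.16% of all genes. Bmp6, a bone morphogenetic protein gene, had signals of 5.64, 5.47, 5.64 and 5.37 in the TNF-/- arrays and 5.23, 5.20, 5.09 and 5.37 in the TNF+/+ arrays, a difference of 0.31 ± 0.09 (SE; limma, adjusted p = 0.300). Array 4 of each group came closest, so the separation is narrow.

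Matrix genes were higher in 12 of 14 cases, with a median of 0.08. Fmod, which encodes the proteoglycan fibromodulin, differed by 0.33 ± 0.11 (SE), with TNF-/- array 1 highest (6.20) and TNF-/- array 4 (5.62) inside the TNF+/+ range of 5.56 to 5.68. The complement inhibitor gene Serping1 differed by 0.23 ± 0.10, the proteoglycan gene Bgn by 0.15 ± 0.07 and Islr by 0.13 ± 0.07 (limma, adjusted p = 0.372 to 0.513 for these 4). Of the fibrillar collagen genes, which other cells of the vessel wall also express, Col1a2 differed by 0.15 ± 0.09 (SE), Col1a1 by 0.02 ± 0.08 and Col3a1 by -0.07 ± 0.06.

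Of the other transporter genes 7 of 8 were higher, with a median of 0.15. The sulfate carrier gene Slc26a2 differed by 0.30 ± 0.10 (SE), the organic cation carrier gene Slc22a2 by 0.25 ± 0.11, Slc47a1, which encodes an extrusion carrier for organic cations, by 0.20 ± 0.12 and Slc16a12 by 0.19 ± 0.09 (limma, adjusted p = 0.372 to 0.564). Transcription factors and signals were higher in 9 of 11 cases, with a median of 0.11. Among them were the forkhead genes Foxc2 (0.33 ± 0.12) and Foxc1 (0.22 ± 0.13), of which Foxc1 is needed for meningeal development, and Bmp7 (0.17 ± 0.08; limma, adjusted p = 0.396 to 0.577 for these 3). The mean of this list of 11 was 4.94 to 5.07 in the TNF-/- arrays and 4.84 to 4.90 in the TNF+/+ arrays, so that here alone among the 4 lists all TNF-/- arrays were above all TNF+/+ arrays. The margin was narrow, and 3 of the 11 genes were below the 25th percentile of signal. Outside the 4 lists, the ependyma list separated in the same way.

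Genes of the arachnoid barrier were split, 3 of 6 higher, with a median of 0.03. Ranbp3l differed by 0.34 ± 0.10 (SE), the gap junction gene Gjb2 by 0.12 ± 0.07 and Dpp4 by 0.12 ± 0.08. Cldn11, a tight junction gene of the arachnoid that oligodendrocytes also express in myelin, went the other way: 8.63 to 8.76 in the TNF-/- arrays and 8.91 to 9.49 in the TNF+/+ arrays, a difference of -0.52 ± 0.14 (limma, adjusted p = 0.278, and 0.311 to 0.593 for the other 3).

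**Figure D4:**
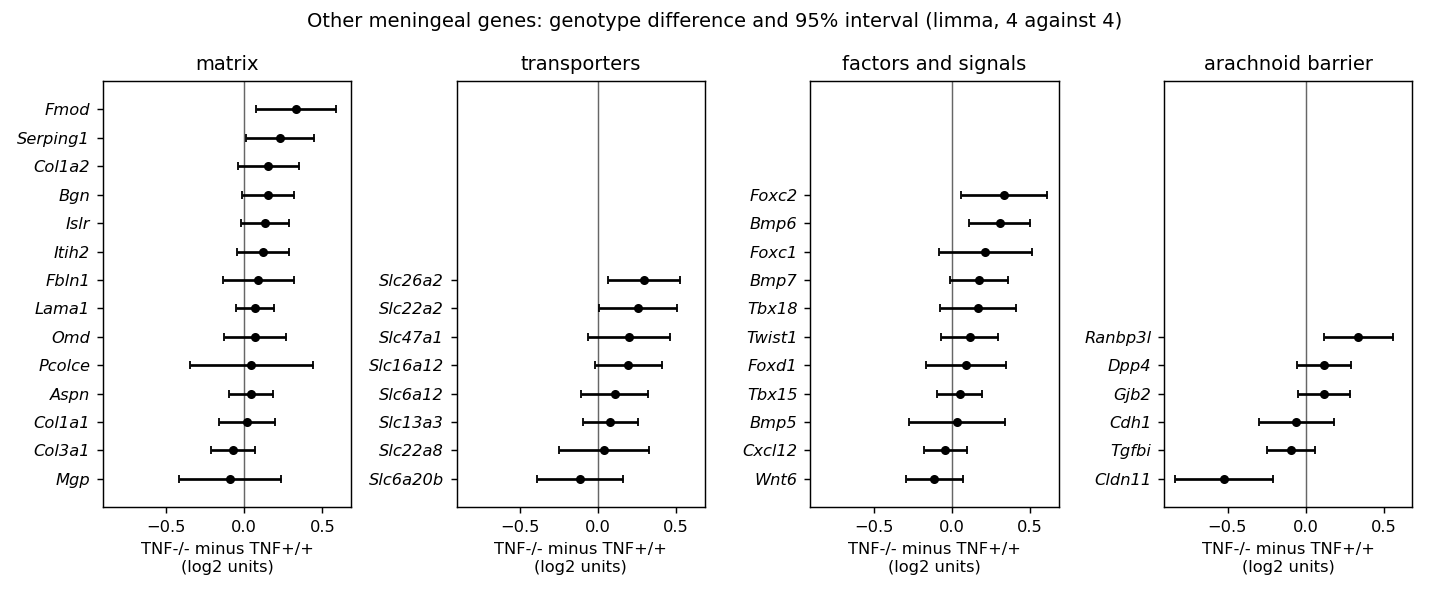
Difference in log2 signal, TNF-/- minus TNF+/+ (horizontal axis), with limma's 95% confidence interval, for the 39 other meningeal genes in 4 lists, 4 arrays per group. Of the 39 points 31 lie above 0, and Cldn11 is the lowest at -0.52.

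The pathways around 3 members were followed as fixed lists. Around Aldh1a2, 2 of 12 other genes of retinoid handling and reception were higher and 10 lower, with a median of -0.03. Rdh10, which makes the substrate of Aldh1a2, differed by 0.15 ± 0.05 (SE) with no overlap between groups, Rxra by 0.15 ± 0.07, the carrier gene Rbp4 by -0.29 ± 0.13 and Aldh1a1, an enzyme of the same reaction, by -0.22 ± 0.10 (limma, adjusted p = 0.394 to 0.492). The retinoic acid receptor gene Rarb, itself a target of retinoic acid, differed by -0.02.

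Around Igf2, 7 of 9 other genes were higher, with a median of 0.08. Igf1 differed by 0.33 ± 0.11 (SE), the insulin receptor gene Insr by 0.16 ± 0.08, and the binding protein genes Igfbp5 by 0.21 ± 0.10 and Igfbp4 by -0.36 ± 0.12, the last with no overlap between groups (limma, adjusted p = 0.367 to 0.506). Around Ptgds, 3 of 6 other genes were higher, with a median of -0.01. Hpgds, the other prostaglandin D synthase gene, differed by 0.22 ± 0.10, the cyclooxygenase gene Ptgs2 by -0.25 ± 0.12, and Ptgdr and Ptges by -0.07 ± 0.08 and 0.03 ± 0.07 (limma, adjusted p = 0.462 to 0.889). None of these 27 genes passed (limma). At an unadjusted p under 0.05 (limma) 2 were higher and 1 lower, close to the shares of all genes, 7.37% and 4.28%. Groups without overlap, as for Rdh10 and Igfbp4, were found in 7.66% of all genes in either direction.

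Markers of other cell types beside the meninges were set next to the members. Of 13 choroid plexus genes 9 were higher, with a median of 0.06, and their summed log2 signal was 75.76 to 77.49 in the TNF-/- arrays and 74.01 to 77.24 in the TNF+/+ arrays, lowest in TNF+/+ array 1. Clic6 and Kcnj13 each differed by 0.25 with no overlap between groups (limma, adjusted p = 0.313 and 0.324), a pattern found in 4.16% of all genes in that direction. Ttr, the defining choroid plexus gene, differed by 0.06. Of 10 genes of the ciliated ependyma 8 were higher, with a median of 0.09 and sums of 45.80 to 48.02 against 44.68 to 45.75. Much of that gap came from Cfap54, at 7.23 and 7.22 in TNF-/- arrays 1 and 2 and between 5.49 and 6.06 in the other 6, a difference of 0.94 ± 0.33 (SE; limma, adjusted p = 0.387), and from Dnah6 (0.40 ± 0.12).

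Pericyte and smooth muscle genes, which share vessels with perivascular fibroblasts, were higher in 7 of 10 cases (median 0.07), with sums of 56.94 to 58.68 against 56.11 to 57.61. Acta2 differed by 0.35 ± 0.16 (SE) and Pdgfrb by 0.13 ± 0.06. Mature oligodendrocyte genes went the other way, higher in 1 of 10 (median -0.23), with sums of 91.24 to 92.85 against 92.44 to 94.95. Trf and Opalin differed by -0.56 ± 0.12 and -0.38 ± 0.07 (limma, adjusted p = 0.199 and 0.139). In 4 of these 10 genes every TNF-/- array lay below every TNF+/+ array, where 7.66% of all genes had no overlap in either direction. At an unadjusted p under 0.05 (limma) 4 of the 10 were lower, against 4.28% of all genes. Genes of macrophages at the brain's borders were higher in 3 of 6 (median -0.04), with sums of 24.11 to 24.57 against 24.36 to 24.87, and 3 of the 6 were below the 25th percentile of signal. The part that any of these cell types plays in the members' differences was not tested.

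The remaining lists had median differences between -0.17 and 0.04. Endothelial genes were higher in 4 of 9 (median -0.06), with Slco1a4 at -0.16 ± 0.12 (SE) and Esam at -0.09 ± 0.09. Astrocyte genes were higher in 3 of 8 (-0.05; Gfap -0.34 ± 0.12, Gja1 0.14 ± 0.06), microglial genes in 2 of 7 (-0.09; C1qa -0.30 ± 0.13, Aif1 -0.14 ± 0.06) and neuronal genes in 5 of 8 (0.04; Gad1 0.26 ± 0.10, Slc17a7 -0.19 ± 0.07). Cerebellum genes were higher in 2 of 8 (median -0.17, Pcp2 -0.31 ± 0.16, Calb1 -0.08 ± 0.06). Their mean difference was -0.30, but 0.04 without TNF+/+ arrays 1 and 2, of which array 1 had the high list mean of 7.83. Pituitary genes were higher in 3 of 6 (0.01), skeletal muscle and bone genes in 1 of 7 (-0.10) and blood cell genes in 0 of 4 (-0.16). In the last 3 lists 4 of 6, 3 of 7 and 3 of 4 genes were below the 25th percentile of signal.

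The low TNF+/+ arrays 1 and 2 recurred across these lists. Their means were the lowest of the 8 arrays for the other matrix genes (5.11 in both), the other transporters (5.33 and 5.29), the ependyma (4.47 and 4.51), pericytes (5.61 and 5.65) and the choroid plexus (5.69 and 5.79). Without these 2 arrays the mean difference of the other matrix genes was 0.00 instead of 0.09, of the other transporters 0.05 instead of 0.13, of the choroid plexus list 0.03 instead of 0.10 and of the pericyte list 0.02 instead of 0.09. The ependyma list changed less, to 0.14 from 0.17. That of the transcription factors and signals was 0.12 in both cases, and that of the 10 members 0.13 instead of 0.24. TNF+/+ array 1 was also the array with the high cerebellum list mean, 7.83, against 6.58 in TNF+/+ array 2. Whether the tissue taken differed between arrays, and whether this touched the meningeal signal, was not tested.

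**Figure D5:**
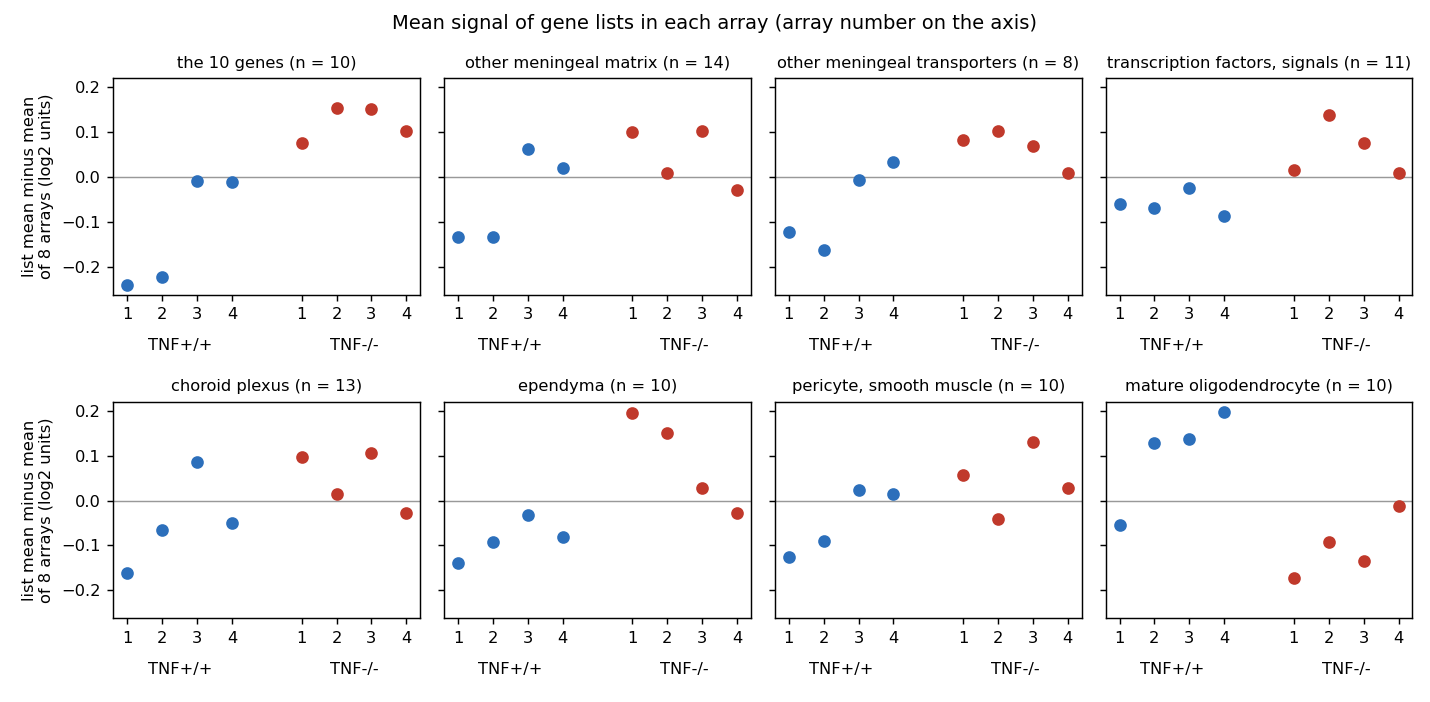
Mean log2 signal of 8 gene lists in each array, as the difference from that list's mean over the 8 arrays (vertical axis), with array numbers below and n the genes in each list; TNF+/+ is blue and TNF-/- red. TNF+/+ arrays 1 and 2 are the lowest points for the 10 meningeal genes, the other matrix genes, the other transporters, choroid plexus, ependyma and pericytes, whereas mature oligodendrocyte genes are lowest in TNF-/- array 1.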

How the data were processed

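Brain RNA of 8 biological replicates was hybridised to 8 arrays, 4 per genotype. The titles do not say whether a replicate was 1 mouse or a pool. The authors deposited a normalized log2 signal for each of 35556 probe sets; GCOS, GCRMA and Partek are listed, without roles or versions, in the submitters' processing notes, and the scale follows from the values (2.83 to 14.15). No source used here names an upstream genome build. Values were used as deposited, without a filter. Sample titles gave the groups and replicate numbers; no 2 columns were identical. Of the probe sets, 21789 pair with 1 gene symbol in the platform annotation, 1621 with several and 12146 are not listed there, hence unnamed here; a gene was read by its probe set of highest mean signal. The 10 members were matched by gene ID to the RefSeq table of GRCm38.p6, which gave chromosomes, gene order and promoter windows.

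The genotype comparison used lmFit and eBayes of limma 3.58.1 under R 4.3.3, two-sided, with genotype as the term. p-values were adjusted by Benjamini-Hochberg across the 35556 probe sets, and those with an adjusted p under 0.05 count as called, with the exact two-sided permutation test of 70 assignments beside it. SAM was rebuilt with 70 assignments, an s0 of 0.0357 and an estimated false discovery rate of 4.49%. Limma and SAM were tested on simulated data. Correlations used exact permutation over all orders of the arrays. p-values measure the spread between these biological replicates only. The members and gene lists were chosen with earlier results of these data known, so lists are described by counts and medians, without a set test. The named genes are the members, Tnf, the 2 genes of smallest p in each list (4 in meningeal and pathway lists) and the 12 most like the members; others were named after their values were seen, such as Slc6a20b, the collagens, Rarb and Ttr. Of the listed genes, 1 each of the retinoid, IGF, prostaglandin, oligodendrocyte, endothelial, microglial, pituitary and muscle lists, 2 of the choroid plexus and 4 of the blood list had no probe set of their own symbol alone. Alternatives tried were scaling, filters, variance models, array weights, a replicate block, SAM and leaving out arrays. Python 3.11.15 with matplotlib 3.10.9 drew the plots.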

Additional observations from a re-analysis of the deposited data

Results flagged for a closer look

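Among 196 groups of 4 arrays, 1 array stood apart from the other 3 in 10, and chance gives about 1 in 20, or 10. No meningeal member was among them. Of the other meningeal genes and pathway genes, Serping1 was 6.53 in TNF+/+ array 4 against 6.35 to 6.37 in the other 3 of its group, and Igfbp4 was 7.10 in TNF-/- array 4 against 7.42 to 7.47. In the cell type lists, Dnah6 was 4.75 in TNF+/+ array 2, Trf 9.91 and Tshb 3.88 in TNF-/- array 3, and Pcp2 4.86 in TNF+/+ array 1. Among the genes most like the members, Fscn1 was 9.14 in TNF-/- array 3 and Septin10 6.33 in TNF-/- array 2. The list mean of astrocyte genes was 9.68 in TNF+/+ array 4 and that of cerebellum genes 7.83 in TNF+/+ array 1.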

How the results depend on the processing

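No member was called by limma under any of the 17 alternatives or by SAM, and of 168 member differences all but 2 kept their direction; those 2 were of Ptgds, at -0.036 without TNF+/+ array 1 and -0.10 without both TNF+/+ arrays 1 and 2. The median difference over members was 0.21 to 0.29 with 1 array left out, 0.14 without TNF+/+ arrays 1 and 2 and 0.39 without TNF+/+ arrays 3 and 4. Members without overlap between groups numbered 3. They were 1 after quantile normalization, 1 after median centring, 7 without TNF+/+ arrays 3 and 4, and 3 to 5 with 1 array left out (5 without TNF-/- array 4 and 5 without TNF+/+ array 4). Groups of fewer arrays separate more readily by chance, and the share of all genes in these settings is not given here. The counts with arrays left out therefore cannot be read as stronger separation. The median r among members, 0.58, was 0.29 with group means removed and 0.49 to 0.68 with 1 array left out. Removing group means takes out the difference in mean between the labelled groups, not differences in how genes vary inside each group. Over all probe sets limma called 29 (13 higher); it called 63 (42 higher) among probe sets with 1 symbol, 15 without TNF+/+ arrays 1 and 2, 0 without TNF+/+ arrays 3 and 4 (unadjusted p under 0.05 in 3566), and 1 to 20 with 1 array left out, lowest without TNF+/+ array 3, and SAM called 53 (32 higher); the cause was not tested. With the replicate number as a block limma called 0 of all probe sets (4025 at an unadjusted p under 0.05) and 0 members (5 at that level), with the same median difference of 0.23. The numbers were not taken to pair the samples, because nothing in the labels ties equal numbers together. Deviations of same-numbered arrays correlated weakly, at 0.07 to 0.11. Yet 6 of 8 arrays correlated best with their own number among the 4 arrays of the other group. Whether same-numbered arrays share a batch was not tested. Members have 1 probe set each, so averaging probe sets changed nothing. Lists of other genes were recomputed without arrays as a choice made after seeing the data.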
